A study of Homo sapiens with 24 samples.

Results

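The histone cluster genes are the genes of the replication-dependent histones, found as every symbol of the deposited tables that starts with HIST1H, HIST2H, HIST3H or HIST4H. This rule found 73 of 26346 genes. The clusters are HIST1 on chromosome 6 with 56 members, HIST2 on chromosome 1 with 13, HIST3 on chromosome 1 with 3 and HIST4 on chromosome 12 with 1. By protein, 6 members code for linker histone H1, 18 for H2A, 20 for H2B, 14 for H3 and 15 for H4, pseudogenes that carry such symbols included.

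PolyA RNA was sequenced in 24 libraries of 3 human cancer cell lines, in 12 groups of 2, to learn how the ERG fusion product and BAF chromatin remodelling complexes act on gene expression. VCaP, a prostate cancer line that carries the TMPRSS2-ERG fusion, received a control hairpin (shCt), a hairpin against ERG (shERG) or a hairpin against the BAF subunit ARID1A (shARID1A). LNCaP, a prostate cancer line without that fusion, received an empty vector (Empty), ERG or ETV1, an ETS factor related to ERG. SW13, an adrenocortical carcinoma line that lacks the BAF ATPase BRG1 protein, received GFP, BRG1 or the ATPase-deficient BRG1-K785R, each together with Empty or ERG, all of these SW13 proteins V5-tagged. All groups were infected with lentivirus for 48 h. VCaP was then selected for 8 days with puromycin, LNCaP for 4 days with blasticidin, and SW13 for 2 days with both drugs. Each line was 1 established line in culture, and the duplicates came from separate infections, selections and cultures.

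Histones package DNA into nucleosomes: an octamer of H2A, H2B, H3 and H4 is wrapped by DNA, and H1 binds the linker between octamers. Cluster genes are transcribed mostly in S phase, and their transcripts usually lack introns and a polyA tail, ending instead just after a conserved stem-loop that the protein SLBP binds. A part of the cluster genes can also give polyadenylated transcripts, which end further downstream and are known from differentiated or non-dividing cells. Because polyA RNA was read here, the counts report the polyadenylated or carried-over part of histone RNA and not the bulk of it.

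Library totals ran from 19754265 to 41996681 counted reads, and 4 members (HIST1H2AA, HIST1H2BA, HIST1H4F and HIST1H4G) had no read in any library. ERG averaged 342 CPM (reads scaled to the library total) ± 17.0 (SD, n = 2) in VCaP shCt and 84.5 ± 4.90 in shERG, and ARID1A averaged 250.5 ± 1.01 in shCt and 73.6 ± 2.37 in shARID1A. ERG averaged 240 ± 2.81 in shARID1A. Forced ERG averaged 977 ± 26.7 in LNCaP, whose Empty group already had 579 ± 16.1 of ETV1 against 3687 ± 87.3 with forced ETV1, and ERG averaged 1530 to 2003 over the 3 SW13 groups with forced ERG and 0 to 0.133 over the 3 without. SMARCA4, the gene of BRG1, averaged 28.5 ± 4.17 in GFP Empty and 34.0 ± 1.88 in GFP ERG, 2175 ± 36.0 in BRG1 Empty and 2111 ± 216 in BRG1 ERG, and 2110 ± 99.5 in BRG1-K785R Empty and 1423 ± 9.30 in BRG1-K785R ERG, so that ERG and Empty beside BRG1-K785R also differed in SMARCA4. All 9 prostate markers reached 1 CPM in every VCaP and LNCaP library, whereas 1 of 6 adrenal cortex markers (CYP21A2) did so in SW13, at 11.5 to 21.8 CPM, below its 34.5 to 57.3 in VCaP and 39.2 to 62.2 in LNCaP. In SW13 HSD3B2 was at 0 reads and NR5A1 reached at most 0.455 CPM, so the adrenal label is not borne out by these markers. The 2 SW13 BRG1-K785R Empty libraries stood apart from the other 10: RMRP, a small RNA without a polyA tail, had 12.2 to 13.1 CPM against 0 to 1.02 elsewhere, and the nuclear RNA MALAT1 had 80.8 to 86.3 against 766 to 2049. In bulk RNA, fewer cells of a kind and less RNA per cell cannot be told apart.

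The members differ in how far a 75-base read can tell them apart. By the GENCODE 29 transcripts, 46 of 73 members shared no 75-base window with another member, and 5 members (HIST1H2AK, HIST1H4K, HIST2H2AA3, HIST2H3A and HIST2H3C) shared every window. HIST2H2AA3 and HIST2H2AA4, HIST2H3A and HIST2H3C, and HIST2H4A and HIST2H4B had equal counts in all libraries, so that 70 distinct members remained, and each such pair is described by its first name. Counts of members called include both names of a pair unless they are given as distinct. HIST1H4J shared 79.6% of its windows with HIST1H4K, HIST1H2AI shared 60.1% with HIST1H2AJ, and every window of HIST1H2AK lay in a long transcript of HIST1H2BN. Values of these genes are uncertain as to which gene gave the reads. HIST1H2AK and HIST1H2BN are not copies but lie on opposite strands, so their shared windows match as reverse complements. The deposited model of HIST1H2BN has 449 bases. Deposited gene lengths ran from 354 to 2223 bases with a median of 467, and only HIST2H2BE and HIST2H2BF had models of 1000 bases or more.

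The stem-loop at which the tailless transcripts end is shown because it is the element that sets these genes apart from polyadenylated ones. It was found in the transcript models of 32 members, in 5 forms, with the paired stem bases in capitals and the loop in lower case.
Form of 17 members, HIST1H2AC and HIST2H2BE among them: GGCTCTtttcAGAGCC
Form of 5 members, HIST1H2BC and HIST1H2BD among them: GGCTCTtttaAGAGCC
Form of 5 members, HIST1H4H and HIST4H4 among them: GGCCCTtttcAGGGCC
Form of 3 members, HIST2H4A among them: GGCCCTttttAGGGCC
Form of 2 members, HIST1H2AG and HIST2H2BC: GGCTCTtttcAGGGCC
In the first 4 forms each stem arm is the reverse complement of the other. Both forms that start with GGCCCT were found in H4 genes only, and the other 3 in H2A, H2B and H3 genes. The GENCODE models of 23 of these members ran on for at least 100 bases past the stem-loop. The deposited gene models are mostly shorter (546 bases for HIST1H2AC and 374 for HIST1H4H), so for such genes the counts do not tell how much RNA extended that far. Many of the other GENCODE models end with the coding part, so no absence of a stem-loop is read from them.

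Upstream sequence is shown for 3 head-to-head pairs of an H2A and an H2B gene, because such pairs moved together or apart in VCaP. The windows are the 160 bases before each transcript start from RefSeq (GRCh38.p14, not the build of the counts). Capitals mark CCAAT (bound by NF-Y), TATAAA and the octamer ATTTGCAT (bound by Oct-1), each on either strand. A match on the other strand shows as the reverse complement, and such a match can overlap one on the first strand, as near the start of HIST1H2AG.
HIST1H2BC, chr6:26123927-26124086, minus strand: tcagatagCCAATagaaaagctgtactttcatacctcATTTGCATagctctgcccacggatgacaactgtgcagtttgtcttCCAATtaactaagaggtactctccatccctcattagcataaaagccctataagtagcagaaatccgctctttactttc
HIST1H2AC, chr6:26124012-26124171, plus strand: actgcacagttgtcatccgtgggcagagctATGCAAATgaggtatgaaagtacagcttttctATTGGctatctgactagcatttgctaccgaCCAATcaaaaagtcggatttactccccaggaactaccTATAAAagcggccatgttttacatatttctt
HIST1H2BJ, chr6:27132796-27132955, minus strand: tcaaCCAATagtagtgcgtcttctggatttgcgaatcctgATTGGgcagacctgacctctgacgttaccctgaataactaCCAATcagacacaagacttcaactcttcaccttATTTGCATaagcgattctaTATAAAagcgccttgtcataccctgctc
HIST1H2AG, chr6:27132883-27133042, plus strand: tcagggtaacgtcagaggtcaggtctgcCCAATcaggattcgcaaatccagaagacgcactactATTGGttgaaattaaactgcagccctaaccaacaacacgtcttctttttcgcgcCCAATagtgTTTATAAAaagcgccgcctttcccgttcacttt
HIST2H2BE, chr1:149886683-149886842, minus strand: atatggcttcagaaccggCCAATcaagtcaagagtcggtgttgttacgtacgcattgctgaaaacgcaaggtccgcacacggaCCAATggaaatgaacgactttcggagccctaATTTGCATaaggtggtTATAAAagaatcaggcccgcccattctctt
HIST2H2AC, chr1:149886758-149886917, plus strand: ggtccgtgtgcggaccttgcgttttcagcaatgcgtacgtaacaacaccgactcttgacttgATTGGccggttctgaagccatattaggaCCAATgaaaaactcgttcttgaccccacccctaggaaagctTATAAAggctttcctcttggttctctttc
Among 61 members with a RefSeq promoter, 51 (83.6%) had CCAAT in the 250 bases upstream, against 32.0% of 35116 promoters of the table. TATAAA was in 40 (65.6%) against 10.7%, and the octamer was in 24 (39.3%) against 1.63%. The octamer was found in 13 of 16 H2B and 11 of 16 H2A promoters and in none of the 6 H1, 10 H3 and 13 H4 promoters. The 11 head-to-head pairs have starts 194 to 248 bases apart, so their windows overlap and an octamer counted for an H2A gene can be that of its H2B partner, as in the HIST1H2BC and HIST1H2AC windows above. CCAAT was in every listed H1, H2A, H2B and H3 promoter but in only 3 of 13 H4 promoters. These matches are letters in a window and were not tested for binding.

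Levels are given as CPM, counted reads scaled to each library's total, or as RPKM, which divides CPM by gene length. Summed over the 70 distinct members, VCaP shCt had 311 CPM ± 0.422 (SD, n = 2), LNCaP Empty 1140 ± 5.39 and SW13 GFP Empty 230.5 ± 25.0. The LNCaP libraries of all 3 groups (1048 to 1162) lay above every VCaP library (270 to 494) and every SW13 library. HIST2 members held 43.8% to 45.6% of histone reads in LNCaP, 16.6% to 21.1% in VCaP and 17.5% to 28.99% in SW13. The top 5 members of a library held most of the histone reads, on average 64.1% to 76.5% over the groups.

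**Figure D1:**
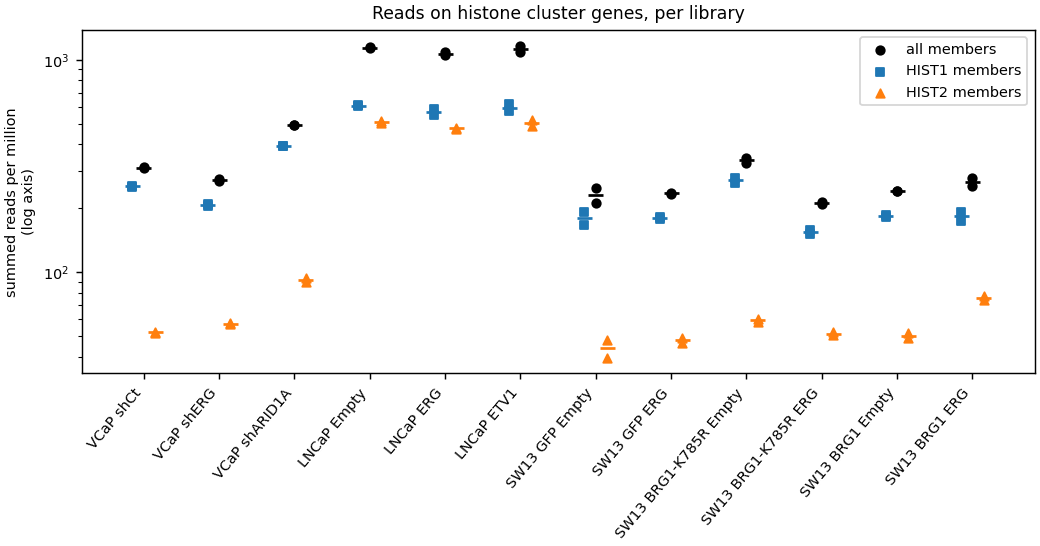
Summed CPM (log axis) of all 70 distinct histone cluster genes (black), of HIST1 members (blue) and of HIST2 members (orange) in each of the 24 libraries; short lines are means of 2 libraries. LNCaP libraries lie highest (1048 to 1162), shARID1A stands above shCt and shERG in VCaP, and BRG1-K785R Empty stands highest in SW13 for the total and for HIST1, while BRG1 ERG stands highest there for HIST2 (77.5 and 73.8).

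Per length, the order of the members differed between lines. HIST1H1C, a linker histone gene active in many dividing and resting cells, was the highest member in VCaP shCt with RPKM values of 115 and 120, followed by HIST1H2BK with 87.7 and 87.5 and HIST1H2AC with 45.2 and 42.5. In LNCaP Empty the highest were HIST1H2BK (RPKM 310 and 323), HIST2H2AA3 (284 and 277), HIST1H1C (200 and 207) and HIST2H2BE (106 and 103). SW13 GFP Empty was led by HIST1H2BK (RPKM 103 and 93.5), HIST1H1C (71.6 and 63.2) and HIST2H2AA3 (38.1 and 30.0). The libraries of neighbouring members in these orders did not overlap. At least 1 CPM on average was reached by 35 members in VCaP, 42 in LNCaP and 28 in SW13, and at least 10 by 7, 17 and 5.

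Between the control groups of the 3 lines, LNCaP Empty stood above both other lines for most members tested. These comparisons differ in line, vector, drug and days of selection at once, which cannot be told apart. Of 55 members tested, 42 were called lower and 3 higher in VCaP shCt than in LNCaP Empty, where 77.7% of all genes were called, 39.8% lower and 37.8% higher. SW13 GFP Empty against LNCaP Empty gave 47 lower and 3 higher (79.3% of all genes called, 41.5% lower and 37.8% higher), and VCaP shCt against SW13 GFP Empty gave 27 higher and 4 lower (80.7%, 40.5% higher and 40.3% lower). The median log2 difference over tested members was -1.51, -2.42 and 0.80 in that order, against -0.04, -0.07 and 0.00 over all genes tested. In all of these, called means an edgeR quasi-likelihood test with an adjusted p under 0.05 over all genes.

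HIST2 members stood further apart between the 2 prostate lines than HIST1 members, with median log2 differences of -3.21 over 9 distinct HIST2 members tested and -1.25 over 40 HIST1 members. HIST2H2BE, an H2B gene with a long polyadenylated transcript, had 235 and 229 CPM in LNCaP Empty, 18.9 and 19.2 in VCaP shCt, and 7.75 and 4.43 in SW13 GFP Empty. The 3 pairs did not overlap, and the log2 difference was -3.53 ± 0.10 (SE) for VCaP against LNCaP (edgeR adjusted p = 2.54e-21) and -5.24 ± 0.12 for SW13 against LNCaP (edgeR adjusted p = 7.77e-24). HIST2H2AA3 had 152 and 148 CPM in LNCaP Empty, 15.3 and 15.3 in VCaP shCt, and 20.4 and 16.02 in SW13 GFP Empty, so that VCaP and SW13 were near each other and LNCaP far above. HIST2H2AC, the head-to-head neighbour of HIST2H2BE, had 41.1 and 41.4 in LNCaP against 3.48 and 3.14 in VCaP. By contrast HIST1H1C differed less, with 146 and 151 CPM in LNCaP Empty against 84.0 and 88.0 in VCaP shCt.

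A few members were read in some lines and all but absent in others. HIST1H3E, an H3 gene, had 32 to 76 reads in each VCaP library and 116 to 193 in each LNCaP library, but 2 reads in all 12 SW13 libraries together, with 0 in 10 of them. Against SW13 GFP Empty, where it had 0 reads, it was at least 23.4-fold higher in LNCaP Empty and at least 11.99-fold higher in VCaP shCt, with 3 reads per library as the floor. HIST1H2BH, an H2B gene, went the other way: 2 reads in all LNCaP libraries, with 0 in 4 of 6, against 19 to 48 in each VCaP library and 8 to 24 in each SW13 library. Its ratio was 74.3 for VCaP shCt over LNCaP Empty (95% interval 20.0 to 622) and 26.4 for SW13 GFP Empty over LNCaP Empty (6.72 to 228), intervals that cover counting error only. The weakly read linker gene HIST1H1B had 14 to 49 reads in each LNCaP library against 0 to 4 in VCaP and 0 or 1 in SW13.

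**Figure D2:**
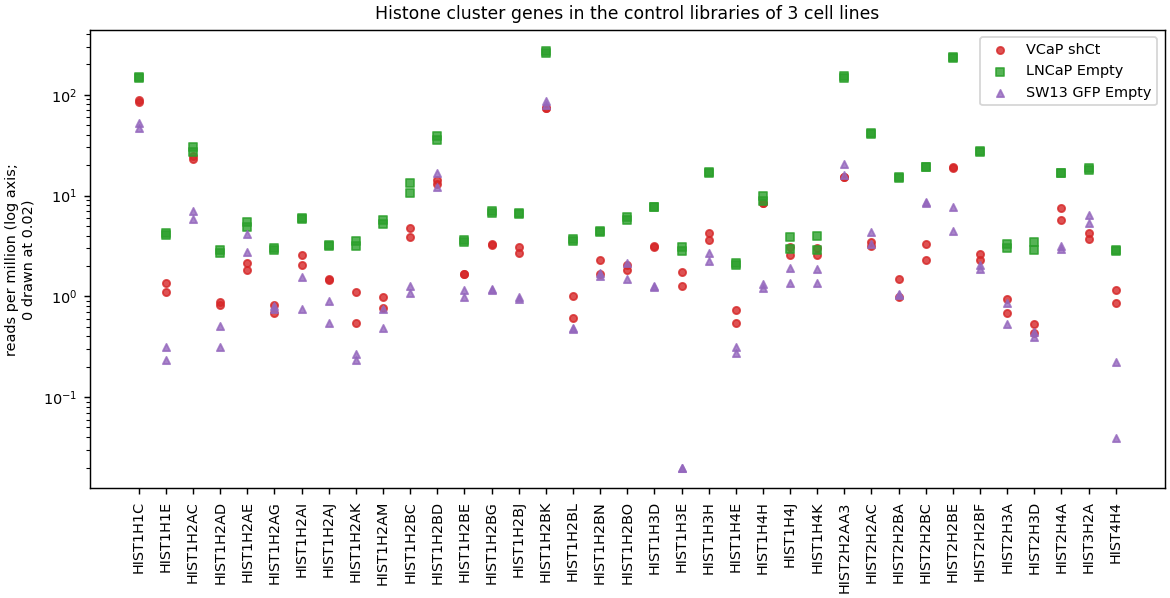
CPM (log axis, 0 drawn at 0.02) in both control libraries of VCaP (red circles), LNCaP (green squares) and SW13 (purple triangles), for distinct members averaging at least 2 in some control group. LNCaP has the highest mean for each gene plotted, with HIST2H2BE at 235 and 229, and both SW13 points of HIST1H3E are at 0.

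With ERG knocked down in VCaP the abundant H1 and H2B genes HIST1H1C and HIST1H2BK fell, while the split over all members rested on the scale. Of 48 members tested, 13 were called lower and 7 higher in shERG than in shCt, where 66.7% of all genes were called, 37.4% lower and 29.3% higher. Of the members, 27.1% were called lower and 14.6% higher, and the median log2 difference was -0.19 against -0.05. Of 17 H2B genes 6 fell and 1 rose, of 8 distinct H3 genes 4 fell and none rose, and of 7 distinct H4 genes 3 rose and 1 fell. Of those 3, HIST1H4J and HIST1H4K share most of their reads. The summed level went from 311 to 272 CPM ± 3.53. With library totals in place of TMM factors the split was 12 higher and 11 lower, and the median of all genes moved by 0.18. Without the second shCt library 13 were called, 12 of them lower. DESeq2 called 2 higher and 9 lower.

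HIST1H1C had 84.0 and 88.0 CPM in shCt and 61.0 and 64.5 in shERG, without overlap, a log2 difference of -0.64 ± 0.05 (edgeR adjusted p = 5.26e-10). HIST1H2BK, the most abundant H2B gene, had 73.6 and 73.5 in shCt and 48.0 and 49.5 in shERG, a log2 difference of -0.78 ± 0.05 (edgeR adjusted p = 3.43e-11). HIST1H4H fell from 8.34 and 8.41 to 5.55 and 5.03, by 0.84 ± 0.12 on the log2 scale. For these 3 genes the shERG libraries all lay below the shCt libraries. HIST1H2BC (-0.77 ± 0.17), HIST1H2BJ (-1.08 ± 0.23), HIST1H3D (-0.93 ± 0.24) and HIST2H2BE (-0.47 ± 0.08) fell as well. The call for HIST1H3D was lost without the first shERG library (edgeR adjusted p = 0.0856). Going up, HIST1H2AE had 2.15 and 1.84 in shCt and 3.57 and 3.33 in shERG (log2 0.61), and HIST1H2BD had 14.2 and 13.2 against 19.6 and 19.0 (log2 0.32 ± 0.09). HIST1H4J and HIST1H4K, which share reads, rose by 0.61 and 0.60. The thinly read HIST1H3F, named for its size of change, had 11 and 20 reads in shCt and 9 and 0 in shERG, and lost its call without the second shCt or the second shERG library. HIST1H2BH (-0.98 ± 0.28) lost its call without the first shERG library (edgeR adjusted p = 0.0532).

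With ARID1A knocked down in VCaP, 23 histone genes rose (21 distinct), led among the well-read ones by the neighbours HIST1H2BC and HIST1H2AC, and 7 fell. The summed level was 493 CPM ± 1.11 in shARID1A against 311 ± 0.422 in shCt. Of 48 members tested 62.5% were called, against 66.1% of all genes, and the median log2 difference was 0.42 against 0.01. Called higher were 47.9% of members and 32.9% of all genes, and called lower were 14.6% of members and 33.2% of all genes. By type, 9 of 17 H2B and 5 of 11 distinct H2A genes rose, and 2 H2B and 1 H2A fell. Of 7 distinct H4 genes 3 rose and 3 fell, HIST1H4J and HIST1H4K with their shared reads among the latter. Of 9 distinct HIST2 members tested 5 rose and none fell.

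The largest gains among well-read genes were in one pair. HIST1H2AC had 24.7 and 23.2 CPM in shCt, 24.9 and 23.7 in shERG, and 68.1 and 66.9 in shARID1A. Only the shARID1A libraries stood apart, with a log2 difference of 1.43 ± 0.07 to shCt (edgeR adjusted p = 1.92e-14). Its head-to-head neighbour HIST1H2BC had 4.74 and 3.90 in shCt, 2.63 and 3.14 in shERG, and 13.9 and 14.8 in shARID1A, a log2 difference of 1.66 ± 0.14 to shCt (edgeR adjusted p = 4.28e-10). For this gene the 3 groups were in 3 separate ranges. HIST2H2BE had 18.9 and 19.2, then 16.4 and 14.7, then 47.8 and 45.2 in the same order, a log2 difference of 1.22 ± 0.08 to shCt (edgeR adjusted p = 2.75e-12).

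HIST1H2BD rose from 14.2 and 13.2 CPM to 29.5 and 30.5 (log2 1.07 ± 0.08), and HIST1H1C rose from 84.0 and 88.0 to 126 and 124 (log2 0.47 ± 0.05). The most abundant H2B gene, HIST1H2BK, rose by less, from 73.6 and 73.5 to 84.4 and 87.7 (log2 0.16 ± 0.05, edgeR adjusted p = 0.0107). That call was lost without the second shCt library (edgeR adjusted p = 0.0574) or the second shARID1A library (0.0727). HIST1H4H rose from 8.34 and 8.41 to 15.2 and 14.9, by a log2 difference of 0.78, and HIST1H3H, an H3 gene, from 4.27 and 3.63 to 6.32 and 6.44. Among genes averaging under 1 CPM, HIST1H2BM went from 2 and 4 reads to 15 and 12, a log2 difference of 2.06 ± 0.63 whose call was lost without the first shCt library or the first shARID1A library. HIST1H4E (log2 1.30 ± 0.38) lost its call without the first shARID1A library.

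Members that fell with shARID1A were few and mostly thinly read. HIST1H2BH went from 1.80 and 1.84 CPM to 0.768 and 0.816 (log2 -1.26), and HIST1H2BJ from 2.70 and 3.10 to 1.92 and 1.89 (log2 -0.67). HIST1H3C went from 21 and 9 reads to 1 and 2, a log2 difference of -3.30 ± 0.84 whose call was lost without the first shCt library (edgeR adjusted p = 0.0543). HIST1H4C had 8 and 23 reads in shCt and 3 and 4 in shARID1A, and its call was lost without the second shCt library or the first shARID1A library. HIST1H2AG fell by 1.26 ± 0.47 on the log2 scale, a call lost without the first shCt or the second shARID1A library.

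Both knockdowns share the shCt libraries, so their values are set side by side only. Of all genes, 66.7% were called with shERG and 66.1% with shARID1A. How many of all genes fell in each joint class was not counted. Among the 45 distinct members tested, 7 were lower with shERG and higher with shARID1A (HIST1H1C, HIST1H2BC, HIST1H2BK, HIST1H3D, HIST1H3H, HIST1H4H and HIST2H2BE). HIST1H2AE, HIST1H2BD and HIST2H4A were higher with both, and HIST1H2BH, HIST1H2BJ and HIST1H3C lower with both. HIST1H4J and HIST1H4K were higher with shERG and lower with shARID1A (log2 -0.76 and -0.80). Compared directly, shARID1A against shERG gave 21 higher and 3 lower of 48 members, where 73% of all genes were called, 36.8% higher and 36.2% lower. Library totals as the scale gave 17 and 3, with the median of all genes moved by -0.12. HIST1H2BC (log2 2.44 ± 0.14) and HIST2H2BE (1.70 ± 0.08) differed by the most among those above 1 CPM, and HIST1H4J stood at -1.37.

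**Figure D3:**
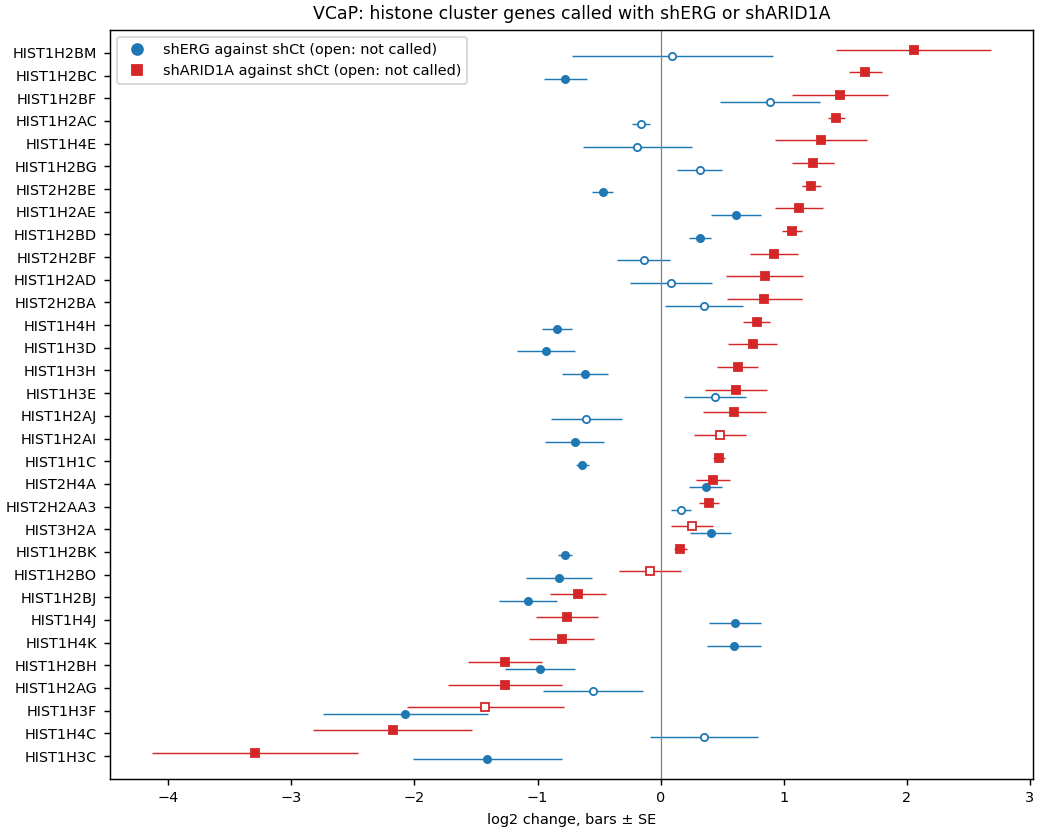
Log2 difference to shCt with its SE for distinct members called with either hairpin in VCaP, shERG as blue circles and shARID1A as red squares, filled where called. Red points lie mostly right of 0 (HIST1H2BC at 1.66, HIST1H2AC at 1.43), while the blue points of HIST1H2BK (-0.78) and HIST1H1C (-0.64) lie left.

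Head-to-head neighbours can be compared because they share the stretch between their starts. Of the 11 pairs 10 had both genes tested in VCaP. The pairs were singled out after their values were seen. With shARID1A both genes rose in 4 pairs: HIST1H2BC (1.66) with HIST1H2AC (1.43), HIST1H2BG (1.24) with HIST1H2AE (1.12), HIST1H2BF (1.46) with HIST1H2AD (0.84), and HIST1H2BM (2.06) with HIST1H2AJ (0.60), all as log2 differences. Both genes fell in 1 pair, HIST1H2BJ (-0.67) with HIST1H2AG (-1.26). HIST2H2BE rose by 1.22 while its neighbour HIST2H2AC had 0.21 (edgeR adjusted p = 0.311), with 3.48 and 3.14 CPM in shCt and 4.26 and 3.74 in shARID1A. In the other 4 pairs neither gene was called. The difference between neighbours was not tested. Counting without strand would let reads of a long transcript fall on a neighbour it covers, as with HIST1H2BN over HIST1H2AK. By the GENCODE transcripts, HIST1H2AC, HIST1H2BG, HIST1H2AE, HIST1H2BF, HIST1H2AD, HIST1H2BM and HIST1H2AG shared no window with another member. No pair with both genes called thus shared windows between its genes. HIST2H2AC shared windows with HIST2H2AA3 and HIST2H2AA4 but not with HIST2H2BE. The part of such reads in the values was not tested. The strand setting is not given in the sources used here.

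**Figure D4:**
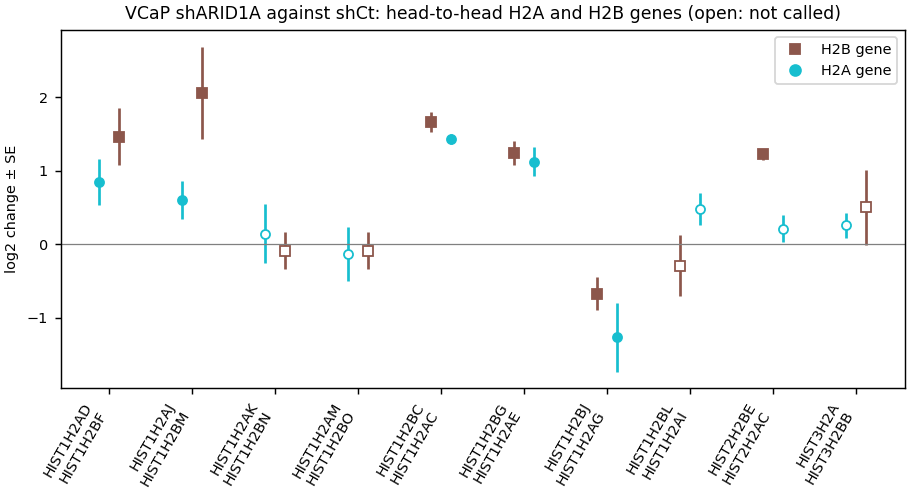
Log2 difference of shARID1A to shCt in VCaP with its SE for the 10 head-to-head pairs with both genes tested (H2B as brown squares, H2A as cyan circles, filled where called). Both genes are above 0 and called in 4 pairs, both below 0 in the pair of HIST1H2BJ and HIST1H2AG, and HIST2H2BE (1.22) lies above HIST2H2AC (0.21).

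Other genes of histone supply and of S phase were called in VCaP as well. Of all genes, 66.7% were called with shERG (37.4% lower and 29.3% higher). With shARID1A 66.1% of all genes were called (33.2% lower and 32.9% higher). Of 18 S-phase genes all 18 were lower with shERG (median log2 -1.54) and 17 of 18 with shARID1A (median -2.59), among them RRM2, which makes deoxynucleotides, and PCNA, the replication clamp. RRM2 had a log2 difference of -2.18 with shERG and -3.91 with shARID1A. Of 14 histone chaperones 12 were lower and 2 higher with shERG, and 14 of 14 were lower with shARID1A; ASF1B, which carries H3 and H4 to sites of assembly, had -2.40 and -3.20. The proliferation marker MKI67 averaged 186 CPM ± 3.59 in shCt, 49.96 ± 2.72 in shERG and 21.0 ± 2.03 in shARID1A. The stem-loop protein gene SLBP had 94.2 ± 4.70, 74.2 ± 0.443 and 59.8 ± 0.807 in that order. Of 15 genes of histone pre-mRNA processing 8 rose and 5 fell with shERG, and 1 rose and 11 fell with shARID1A. The replication-independent variants are mostly polyadenylated and can be made outside S phase as well. Of 12 variants 1 was higher and 9 lower with shERG, and 3 were higher and 6 lower with shARID1A. H2AFZ fell by 2.28 on the log2 scale with shARID1A. MALAT1 averaged 4074 ± 79.6 in shARID1A against 1820 ± 114 in shCt, and the part of these shifts in the histone values was not tested.

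With forced ERG in LNCaP, abundant histone genes differed by small amounts, and 1 weakly read linker gene by more than 2-fold. Of 50 members 8 were called lower and 4 higher, 24% called against 29.7% of all genes (14.3% lower and 15.4% higher), with a median log2 difference of 0.00 for members and for all genes. HIST2 members made up 3 of the 7 distinct lower calls, from 9 distinct HIST2 members tested, and HIST1 members another 3, from 35 tested. HIST1H1B had 1.23 and 0.857 CPM in Empty and 0.465 and 0.477 in ERG, without overlap (log2 -1.13 ± 0.33, edgeR adjusted p = 0.0319). That call was lost without the first Empty, either ERG or either ETV1 library (edgeR adjusted p = 0.0554 to 0.213) and by DESeq2 (adjusted p = 0.111). HIST2H3D, an H3 gene, had 3.45 and 2.86 against 1.94 and 1.94 (log2 -0.69 ± 0.20), a call lost without the first Empty or either ERG library. HIST2H2AA3 had 152 and 148 CPM in Empty and 127 and 126 in ERG, without overlap (log2 -0.24 ± 0.04, edgeR adjusted p = 0.00398). HIST2H2AC had 41.1 and 41.4 against 33.7 and 34.6 (log2 -0.26 ± 0.06), and HIST2H2BE had 235 and 229 against 239 and 231, where the groups overlapped. HIST1H2AE rose from 4.84 and 5.48 to 6.71 and 7.97 (log2 0.51 ± 0.13), and HIST1H3E from 3.10 and 2.79 to 4.98 and 3.95 (log2 0.62 ± 0.17). HIST1H4H (log2 0.35 ± 0.11) and HIST1H2BG (0.32 ± 0.10) were the other higher calls, and HIST3H2A (-0.30 ± 0.07), HIST1H1C (-0.20 ± 0.06) and HIST1H2BD (-0.21 ± 0.06) the other lower ones, and each of these 5 lost its call without at least 1 library. These counts rest on single libraries: 2 members were called without the first Empty library, 6 without the second, 5 without the first ERG library and 7 without the second, while DESeq2 on all libraries called 6. HIST2H2AC lost its call without either Empty library (edgeR adjusted p = 0.0519 and 0.0538), HIST1H2AE without the first Empty or the second ERG library, and HIST1H3E without either Empty or the first ERG library. HIST2H2AA3 kept its call in each of these fits.

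ETV1 in LNCaP raised 6 of 50 members and lowered 1, with 26.1% of all genes called, 13.2% higher and 12.9% lower. HIST1H3H had 17.1 and 16.7 CPM in Empty and 21.5 and 22.3 in ETV1 (log2 0.41 ± 0.07, edgeR adjusted p = 0.00262), and the groups were apart. HIST4H4, the lone gene of its cluster, had 2.85 and 2.86 against 4.83 and 5.02 (log2 0.82 ± 0.17, edgeR adjusted p = 0.00691). HIST1H2AI and HIST1H2AJ, which share reads, rose by 0.52 ± 0.12 and 0.60 ± 0.17, and HIST1H1C had 146 and 151 against 125 and 116 (log2 -0.27 ± 0.06). HIST1H1C lost its call without either Empty or the second ETV1 library, as did HIST1H2AI and HIST1H2AJ. Without the first Empty library 3 members were called, without the second 2, and without the second ETV1 library 3. ERG against ETV1, where 14.4% of all genes were called (6.5% lower and 7.87% higher), gave 7 lower and 0 higher, led by HIST4H4 at -0.94 ± 0.17. Without the second ETV1 library edgeR called 0, with 11 at an unadjusted p under 0.05. Without the first ETV1 library 4 were called, without the first Empty library 3, and without the first or second ERG library 3 and 2; HIST4H4 itself had an edgeR adjusted p of 0.0588 without the second ETV1 library.

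In SW13 the summed level was between 212 and 267 CPM in 5 of 6 groups. It was 230.5 ± 25.0 in GFP Empty, 235 ± 0.527 in GFP ERG, 242 ± 0.278 in BRG1 Empty, 267 ± 17.0 in BRG1 ERG, 336 ± 14.1 in BRG1-K785R Empty and 212 ± 2.86 in BRG1-K785R ERG. The BRG1-K785R Empty libraries were the highest, and they are also the ones that stood apart in RMRP and MALAT1. Values below that use them as a group have no counterpart without them. With both left out of the fit, ERG beside GFP, ERG beside BRG1 and BRG1 against GFP kept counts of 2, 17 and 12 called members.

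ERG beside GFP, where no BRG1 was supplied, changed 2 of 45 histone genes, with 26% of all genes called, 12.6% higher and 13.5% lower. HIST1H2BK had 86.7 and 78.4 CPM in GFP Empty and 66.9 and 65.4 in GFP ERG (log2 -0.37 ± 0.08, edgeR adjusted p = 0.00116). HIST1H2BC rose from 1.07 and 1.25 to 1.99 and 2.42 (log2 0.86 ± 0.29), a call lost without either GFP Empty library or the second GFP ERG library. The groups did not overlap for either gene, and 1 member was called without the second GFP Empty or the second GFP ERG library.

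ERG beside BRG1 raised 14 of 45 members and lowered 3, with 45.4% of all genes called (22.6% higher, 22.8% lower) and a median log2 difference of 0.29 for members against 0.00. HIST2 members accounted for 4 of the 11 distinct genes that rose, HIST2H2AA3, HIST2H2AC, HIST2H3A and HIST2H4A. These were 4 of 9 distinct HIST2 members tested, beside 7 of 30 HIST1 members. The median log2 difference was 0.09 over the HIST2 and 0.27 over the HIST1 members, so HIST2 as a set did not rise more. HIST2H3A (log2 0.73) lost its call without the second BRG1 Empty or the second BRG1 ERG library. HIST2H4A had 6.62 and 5.67 CPM in BRG1 Empty and 11.6 and 13.2 in BRG1 ERG, above all other SW13 libraries (log2 1.06 ± 0.15, edgeR adjusted p = 4.74e-07). HIST2H2AA3 had 20.5 and 20.6 against 38.5 and 32.8 (log2 0.84 ± 0.10, edgeR adjusted p = 2.97e-08), and HIST1H2AC had 8.43 and 6.35 against 15.4 and 12.1 (log2 0.94 ± 0.15). For these 3 genes and for HIST1H2BD, with 18.1 and 20.7 against 30.1 and 26.1 (log2 0.58 ± 0.12), the BRG1 ERG libraries were the highest of the 12.

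The members that fell beside BRG1 were H2B genes. HIST1H2BK had 76.7 and 81.1 CPM in BRG1 Empty and 55.9 and 45.8 in BRG1 ERG (log2 -0.59 ± 0.08, edgeR adjusted p = 6.46e-07). HIST1H2BE (log2 -0.97 ± 0.32) and HIST1H2BJ (-0.90 ± 0.32) fell too, the former losing its call without the second BRG1 Empty or second BRG1 ERG library and the latter without any 1 of the 4 libraries compared. In all, 10 members were called without the second BRG1 Empty library, and DESeq2 called 7 higher and 2 lower. Of 18 S-phase genes 17 were lower in BRG1 ERG (median log2 -0.53), where 22.8% of all genes were called lower. This fall was not particular to BRG1. Beside GFP 15 of the 18 were lower with ERG (median -0.32), against 13.5% of all genes. Beside BRG1-K785R 14 were lower and 2 higher (median -0.42), against 30.9% and 25.3% of all genes. MKI67 averaged 395 CPM ± 12.7 in BRG1 ERG against 758 ± 0.937 in BRG1 Empty. It averaged 742 in GFP ERG against 617 in GFP Empty, and 550 in BRG1-K785R ERG against 723 in BRG1-K785R Empty. The part of these genes in the histone values was not tested.

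Whether the ERG response depends on the BRG1 form was tested as a difference of differences. Beside BRG1 minus beside GFP, 6 members were called higher and 2 lower of 45, where 37.8% of all genes were called (19.1% higher, 18.7% lower), and library totals as the scale gave 5 and 3. HIST2H4A (log2 0.91 ± 0.24, edgeR adjusted p = 0.00342) and HIST2H2AA3 (0.70 ± 0.15, edgeR adjusted p = 0.000294) kept their calls in every fit that left out 1 library. HIST1H2AC (0.70 ± 0.22) lost its call without the first GFP Empty, the second GFP ERG, the second BRG1 Empty or the first BRG1 ERG library. HIST2H2AC (0.67 ± 0.26) had an edgeR adjusted p of 0.041, and of 0.0512 without both BRG1-K785R Empty libraries, and its call was also lost without the first GFP Empty, first GFP ERG, either BRG1 Empty or first BRG1 ERG library. Without both BRG1-K785R Empty libraries 5 members were higher and 1 lower. In all, 5 members were called without the first GFP Empty or second GFP ERG library and 4 without the second BRG1 Empty library.

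BRG1-K785R Empty, the ATPase-deficient form without ERG, had the highest HIST1H2BK of all SW13 groups. HIST1H2BK had 172 and 157 CPM there and 59.4 and 56.8 in BRG1-K785R ERG (log2 -1.69 ± 0.08, edgeR adjusted p = 5.25e-17). Of 45 members 17 were called lower and 0 higher with ERG beside BRG1-K785R, 37.8% called against 56.2% of all genes (30.9% lower, 25.3% higher). The median of all genes moved by 0.18 when library totals were the scale, and 14 members were then called lower. HIST2H2AC had 8.42 and 8.24 against 4.96 and 5.16 (log2 -0.91 ± 0.17), and HIST1H2BE had 4.25 and 2.63 against 1.47 and 1.62 (log2 -1.36 ± 0.27). RMRP averaged 12.7 CPM ± 0.638 in BRG1-K785R Empty and 0.253 ± 0.0718 in BRG1-K785R ERG, and its part in these values was not tested. The ERG effect beside BRG1 minus that beside BRG1-K785R gave 21 higher and 0 lower, 46.7% of members called against 46.2% of all genes (25.8% higher, 20.4% lower). HIST2H4A had 1.81 ± 0.23 and HIST1H2BK 1.10 ± 0.12, the latter a gene that fell with ERG beside both forms and by less beside BRG1. With library totals as the scale it gave 15 higher and 1 lower, and the median of all genes moved by -0.23.

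Without ERG, the BRG1 forms were compared with GFP and with each other. BRG1 against GFP gave 9 higher and 3 lower of 45 members (62.4% of all genes called, 32.2% higher and 30.2% lower), or 9 and 1 by library totals, where the median of all genes moved by 0.13. HIST2H4A rose from 2.94 and 3.17 CPM to 6.62 and 5.67 (log2 0.87 ± 0.18), HIST1H2BC from 1.07 and 1.25 to 2.37 and 3.09 (log2 1.09 ± 0.27), and HIST2H3A from 0.534 and 0.862 to 2.22 and 1.93 (log2 1.41 ± 0.31). HIST1H4E, averaging under 1 CPM in SW13, had 0.312 and 0.274 against 1.32 and 1.49 (log2 2.11 ± 0.48, edgeR adjusted p = 0.000347). HIST1H2AE fell from 4.14 and 2.74 to 2.03 and 2.09 (log2 -0.86 ± 0.22), a call lost without the first GFP Empty library.

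BRG1-K785R against GFP gave 16 higher and 0 lower (58.7% of all genes called, 32.3% higher and 26.4% lower), with HIST1H2BK at 1.08 ± 0.08, HIST2H2AC at 1.20 ± 0.17, HIST1H2BN at 1.33 ± 0.22 and HIST2H3A at 1.80 ± 0.30 on the log2 scale. HIST2H4A (0.99), HIST2H3A and HIST1H2BC (1.54) were higher with BRG1-K785R as they were with BRG1; both comparisons share the GFP Empty libraries. BRG1 against BRG1-K785R gave 2 higher and 11 lower (66.7% of all genes called, 34.1% lower and 32.6% higher), or 2 and 6 by library totals, where the median of all genes moved by 0.21. HIST1H2BK (-1.27 ± 0.08) and HIST2H2AC (-1.21 ± 0.17) were lower with BRG1, and HIST1H4E (1.01 ± 0.42) and HIST2H3D (1.39 ± 0.47) were higher, both under 1 CPM on average. In that comparison the call for HIST1H4E was lost without the first BRG1-K785R Empty library or either BRG1 Empty library, and that for HIST2H3D without the second BRG1-K785R Empty or the first BRG1 Empty library.

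**Figure D5:**
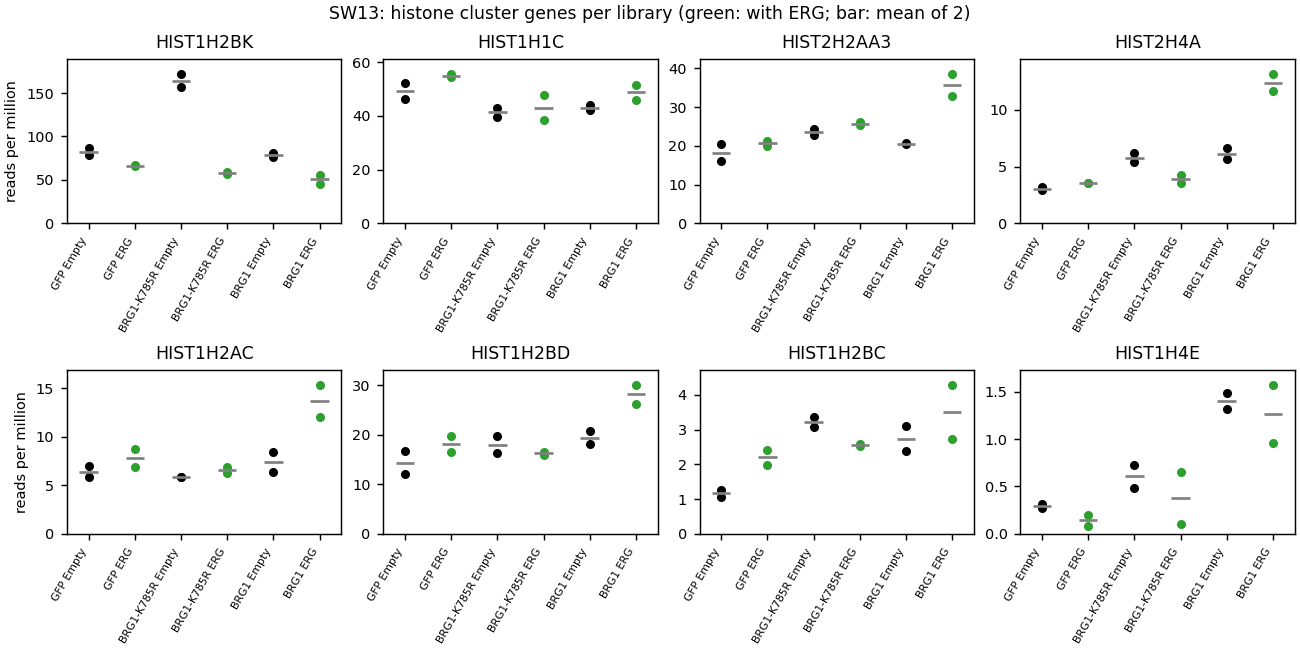
CPM of 8 histone cluster genes in each SW13 library (axes start at 0; green with ERG, black with Empty, grey bars are means of 2). HIST1H2BK is highest in BRG1-K785R Empty (172 and 157), and HIST2H4A, HIST2H2AA3, HIST1H2AC and HIST1H2BD are highest in BRG1 ERG.

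HIST1H2BK was called lower with ERG in all 3 SW13 backgrounds and lower with ERG knockdown in VCaP. Beside GFP only 1 member was called lower, so no other member could meet this rule. Beside BRG1-K785R the fall was measured from the Empty libraries that stood apart in RMRP and MALAT1. In LNCaP, HIST1H2BK had 260 and 271 CPM in Empty and 226 and 256 in ERG, and this difference was not called (log2 -0.13 ± 0.08, edgeR adjusted p = 0.273). HIST1H2AC was not called with shERG in VCaP (log2 -0.16, edgeR adjusted p = 0.0569). It was near 30 CPM in every LNCaP library (27.0 to 30.2), and rose with shARID1A and with ERG beside BRG1. HIST2H2AA3 had 126 to 152 CPM in LNCaP, above its 15.3 to 21.1 in VCaP and 16.02 to 38.5 in SW13, 2 ranges that overlapped. Its pattern was not its own. Group means of HIST2H2AC were 34.1 to 41.3 in LNCaP, 3.31 to 4.00 in VCaP and 3.85 to 8.33 in SW13. HIST1H1C ranged from 61.0 to 126 in VCaP, 116 to 151 in LNCaP and 38.4 to 55.6 in SW13, so that the ranges of LNCaP and SW13 did not touch.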

How the data were processed

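PolyA RNA of 24 libraries was read as 75-base single-end runs on a NextSeq 500, per the labels' protocols. The authors aligned reads to hg19 with STAR 2.3.1, per the submitters' processing notes. How reads were assigned to genes (the program, the annotation and the use of strand) is not given in the sources used here. The deposited tables hold raw counts per gene, a gene length, and RPKM that the authors computed, equal to counts scaled by library total and length.

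Counts were tested with edgeR 4.0.16 (limma 3.58.1, R 4.3.3): TMM scaling, filterByExpr by group, quasi-likelihood F test, Benjamini-Hochberg adjustment over all genes of a fit, threshold 0.05. There was 1 fit per line without a block (16791, 16993 and 17018 genes in VCaP, LNCaP and SW13) and 1 over all libraries for comparisons between lines (18999 genes). Levels use library totals, tests TMM factors (0.91 to 1.09). The code was tested on simulated data. Replicates differed beyond sampling noise in every group (chi-square per degree of freedom 2.38 to 14.4). Alternatives were RLE scaling, library totals, no filter, DESeq2 1.42.0, the replicate number as a block, only the groups compared, and leaving out each library. Leaving out both BRG1-K785R Empty libraries and counting equal pairs once were added after seeing the data.

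Full statistics were limited to the 8 largest changes per comparison among called members whose groups did not overlap, and to called members among the 8 most abundant. For the differences between ERG effects, overlap of groups was not checked. Other members were named from a mean of 1 CPM in the line. Members and lists were chosen with earlier results of these data known. Shared windows and stem-loops come from GENCODE 29 transcripts, promoters from RefSeq (GRCh38.p14), and no coordinates were converted. Some SW13 protocol text names luciferase where the sample labels name GFP, which is used.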

Additional observations from a re-analysis of the deposited data

Results flagged for a closer look

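The effect of ERG in SW13 was tested for a difference between the supplied BRG1 forms, and the histone genes for which that difference passed are listed here as log2 values of the effect beside BRG1 minus the effect beside the other construct. Against GFP, 8 of 45 members (17.8%) passed the edgeR test, where 37.8% of all genes did. HIST2H4A (0.91), HIST2H2AA3 (0.70), HIST1H2AC (0.70) and HIST2H2AC (0.67) responded more in the upward direction beside BRG1. HIST1H2BE (-1.27) and HIST1H2BJ (-1.14) responded more in the downward direction, with edgeR adjusted p of 0.0256 and 0.0472, and both lost their calls without the second GFP Empty, second GFP ERG, second BRG1 Empty or second BRG1 ERG library, with edgeR adjusted p of at least 0.0653. HIST1H2AC and HIST2H2AC also lost theirs when single libraries were left out.

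Against BRG1-K785R, 21 members (46.7%) passed, where 46.2% of all genes did. All 21 were upward with TMM factors, and library totals as the scale gave 15 upward and 1 downward. Upward is the sign of the difference here, not a rise with ERG. HIST1H2BK fell with ERG from a mean of 78.9 to 50.8 CPM beside BRG1, and from 164 to 58.1 beside BRG1-K785R. HIST2H2BE had means of 5.76 in Empty and 5.95 in ERG beside BRG1, and of 5.80 and 3.95 beside BRG1-K785R. The H2A genes were HIST1H2AI (1.71), HIST2H2AC (1.65), HIST1H2AD (1.54), HIST1H2AG (1.46), HIST1H2AC (0.96) and HIST2H2AA3 (0.91). The H2B genes were HIST1H2BG (1.35), HIST1H2BK (1.10), HIST1H2BD (0.92) and HIST2H2BE (0.83). HIST2H4A (1.81) and HIST1H4H (1.34) of H4, HIST2H3A (1.67) of H3 and the linker gene HIST1H1C (0.36) completed the named members. The BRG1-K785R Empty libraries, which stood apart in RMRP and MALAT1, enter each of these values, and their part in them was not tested. Library totals as the scale ended the calls of HIST1H2AI, HIST1H2AD, HIST1H2AG, HIST2H2BE and HIST1H1C.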

How the results depend on the processing

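No member change with full statistics changed direction under any alternative, and the direction of the other named changes was not checked. Of 175 member changes with full statistics, 135 kept their call with DESeq2 and 40 lost it, 158 and 17 did so with library totals as the scale, 170 and 5 without the filter, 175 and 0 with RLE scaling, and 167 and 8 with the replicate block. Leaving out 1 library ended 193 of 2220 such calls. Counts of called members that moved by more than 1.5 times were 11 with DESeq2 for shERG against shCt (20 in the reported test), 6 for ERG in LNCaP (12), 9 for ERG beside BRG1 (17) and 5 for the ERG effect beside BRG1 minus that beside GFP (8). For BRG1 against BRG1-K785R, library totals gave 8 (13). Leaving out 1 library gave 13 to 21 for shERG, 20 to 32 for shARID1A, and 17 to 24 for shARID1A against shERG. In LNCaP it gave 2 to 9 for ERG, 2 to 7 for ETV1 and 0 to 5 for ERG against ETV1. In SW13 it gave 1 to 2, 13 to 19 and 10 to 17 for ERG beside GFP, BRG1-K785R and BRG1, 9 to 13 for BRG1 against GFP, 14 to 17 for BRG1-K785R against GFP, 10 to 14 for BRG1 against BRG1-K785R, and 4 to 8 and 18 to 24 for the differences of the ERG effect against GFP and BRG1-K785R. Between lines it gave 44 to 47, 47 to 52 and 25 to 33.

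The replicate numbers showed no positive pairing of the samples in VCaP or LNCaP. Deviations of same-numbered libraries correlated there by -0.046 to 0.023 and by -0.202 to 0.002. In SW13 the correlations ran from -0.212 to 0.318. Those among BRG1-K785R ERG, BRG1 Empty and BRG1 ERG were 0.261, 0.318 and 0.148, and pairing within these groups alone was not tested. With the replicate block, 20, 28 and 24 members were called in the VCaP comparisons in the order above, 8, 6 and 5 in LNCaP, 2, 17 and 17 for ERG beside GFP, BRG1-K785R and BRG1, 12, 16 and 13 for the BRG1 forms, 7 and 21 for the differences, and 45, 50 and 32 between lines. Groups of 2 libraries and few reads limit the members under 1 CPM.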
